A study of Mus musculus with 2 samples.

Results

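The TRF probes are the small-RNA oligos whose identifiers carry the token TRF followed directly by a number. They were 3633 of the 14400 small-RNA probes on the array, with 1 spot each on both arrays, and 3630 of them had no spot marked as an outlier. Every TRF probe name starts with ASMM10SM20 and ends with TV2, so only the token and the number are printed here. Neither the RNA behind each number nor the probe sequence appears in the sources used here, and the token itself is not explained there.

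The study used 2 two-colour arrays and BV-2, a microglial line from mouse. The first array, OGD/R, came from cells held for 2 h in medium without glucose and serum under 5% CO2 and 95% N2 at 37 °C and then returned to normal oxygen and regular medium. The second array, control, came from cells kept in regular culture under 5% CO2 at 37 °C. On each array the RNA eluted from the beads after immunoprecipitation (IP, called modified by the submitters) was labelled with Cy5, and the RNA left in the supernatant (Sup, called unmodified) with Cy3. The modification that the antibody recognised and the length of the reoxygenation were not given in the sources used here. Each group had 1 array, so the differences below have no replicate check, and no test between the conditions was made. BV-2 is an immortalised line, and 1 of 11 microglial marker genes checked had a probe on the array, so these files cannot check the cell type.

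In the field, the letters tRF usually stand for tRNA-derived fragments, short RNAs cut from mature or precursor tRNAs. Such fragments are known to accumulate when nucleases cleave tRNAs in stressed cells, including cells short of oxygen or nutrients. Parent tRNAs carry many chemical modifications, which is why small RNAs of this kind are studied with antibodies against modified nucleosides. Whether the TRF token has this meaning on the array was not given in the sources used here.

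The identifier numbers of the TRF probes were not scattered. They ran from 100000000 to 100010068, a span of 10069 numbers, and fell into 1224 runs of consecutive numbers. Of these runs 1166 held exactly 3 probes, and together they contained 96.3% of the members. Runs were in turn grouped into blocks, in which the number steps by 2 from the end of a run to the start of the next. There were 411 blocks, of which 316 held 9 probes, and 312 of those were built as 3 runs of 3. The largest block held 69 probes, from TRF100000974 to TRF100001064. Members of a run lay apart on the array surface, at a median distance of 67.3 spots on a grid of 192 rows and 82 columns. Of 2409 neighbouring pairs within runs, 1 lay within 2 spots. Whether the members of a run or block share a target or sequence was not given in the sources used here, so they are not treated as independent measurements.

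Detection of the TRF probes was close to equal on the arrays. In Sup 2318 probes (63.9%) were well above background on the OGD/R array and 2276 (62.7%) on the control array. In IP the counts were 1630 (44.9%) on the OGD/R array and 1620 (44.6%) on the control array. On both arrays, 2234 probes were well above background in at least 1 channel and 1441 in both channels, while 1134 were above background in no channel on either array. No TRF spot was saturated, with 0 in each channel on each array. The signal was low: before dye normalization the median TRF spot stood 18 intensity units over its local background in Sup on the OGD/R array and 16.5 on the control array, and in IP the values were 6.5 for OGD/R and 6 for control.

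Total signal, the log2 sum of IP and Sup scaled between arrays, was concentrated in few probes. The 10 brightest TRF probes carried 23.1% of the summed TRF signal on the OGD/R array and 25.9% on the control array, and the 100 brightest carried 51.3% on OGD/R and 54.3% on control. TRF probes as a whole made up 13.1% of the small-RNA signal on the OGD/R array and 12.1% on the control array.

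The brightest members came mostly from 1 block. TRF100000283 had the highest total level, 18.71 on the OGD/R array and 18.91 on the control array. TRF100000282 followed with 18.62 on OGD/R and 18.78 on control. Next to them TRF100000273 had 18.16 on OGD/R and 18.50 on control, TRF100000281 had 18.05 on OGD/R and 18.21 on control, and TRF100000278 had 18.00 on OGD/R and 18.12 on control. These probes, with TRF100000274 and TRF100000277, took 7 of the 10 highest places and lie in the block from TRF100000273 to TRF100000283. All 8 members of that block without an outlier spot had total differences (OGD/R minus control) between -0.35 and -0.06. Their differences were -0.51 to -0.25 in Sup and 0.03 to 0.16 in IP, and these signs rest on the processing. With spike-in scaling the Sup differences were -0.19 to 0.06, with 4 of the 8 above 0. With no scaling the IP differences were -0.12 to 0.02, with 2 above 0, and with normexp 1 IP difference was above 0. The other places among the 10 went to TRF100008463, with levels of 17.87 on OGD/R and 17.80 on control, to TRF100001086, with 17.88 on OGD/R and 17.23 on control, and to TRF100000300, with 16.76 on OGD/R and 17.24 on control. TRF100001086 stood alone in its run, since its neighbour TRF100001087 had a level of 9.46 on OGD/R and 9.29 on control.

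The IP share, IP divided by IP plus Sup in the dye-normalized signals, was described for the 1441 probes well above background in IP and in Sup on each array. Its median was 46.2% on the OGD/R array and 45.9% on the control array. The middle of the distribution, from the 25th to the 75th percentile, ran from 33.0% to 57.0% on OGD/R and from 33.3% to 56.8% on control. TRF probes had the lowest median share of the 5 tokens on both arrays. The medians of the others on the OGD/R array were 49.2% for MIRNA, 50.6% for MIRNASS, 53.7% for TRFSS and 65.8% for PST probes, and on the control array 48.3%, 50.4%, 54.3% and 65.3% in the same order. Shares above 50% were found for 599 TRF probes (41.6%) on OGD/R and 566 (39.3%) on control, with 510 of them above on both. The share of a probe on the OGD/R array followed that on the control array, with a Pearson correlation of 0.94 across the 1441 probes, which share 2 arrays and 1 dye normalization. A dye normalization sets the overall balance of the channels, so the shares rank probes within an array and do not measure the fraction of modified molecules.

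The extremes of the IP share also sat in blocks. TRF100005355 had the highest share, 95.1% on the OGD/R array and 94.7% on the control array, and its run neighbours TRF100005354 and TRF100005356 had 92.6% and 94.4% on OGD/R against 93.5% and 94.6% on control. The 27 probes of this block, TRF100005326 to TRF100005360, nevertheless spanned a wide range. In the run TRF100005346 to TRF100005348 the 2 members measured in both channels had shares of 26.7% and 22.9% on OGD/R, against 29.9% and 28.2% on control, while the next run, TRF100005350 to TRF100005352, had 87.9%, 93.5% and 85.9% on OGD/R against 83.4%, 91.9% and 83.1% on control. The share stepped from run to run and was closer within each of these runs than between them. A second group of high shares was the run TRF100008130 to TRF100008132, at 94.0%, 93.3% and 94.4% on the OGD/R array and 93.9%, 93.2% and 94.1% on the control array. The runs on either side of it in the same block lay far lower, between 34.8% and 46.1% on OGD/R and between 40.5% and 53.0% on control.

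At the other end, TRF100000685 had the lowest share, 3.53% on OGD/R and 4.49% on control. It lies in the block TRF100000685 to TRF100000695, where 7 of the 8 probes without an outlier spot were measured in both channels and ranged from 3.53% to 8.90% on OGD/R and from 4.18% to 9.41% on control. The total level of these 7 probes differed widely among themselves, between 12.14 and 16.74 on OGD/R and between 11.84 and 16.55 on control, so the low share was common to bright and dimmer members. TRF100000454, from another block, had 6.0% on OGD/R and 5.82% on control. Over the 135 blocks with at least 5 members measured in both channels, the median share ran from 4.52% to 86.9% on the OGD/R array, and 37 blocks had a median above 50% on both arrays.

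Place within a block also went with the share. In the 312 blocks of 3 runs of 3, the first runs had a median share of 49.8% on OGD/R and 49.0% on control (372 probes). Second runs had 46.0% on each array (310 probes), and the third runs had 39.5% on OGD/R and 38.6% on control (344 probes). Place within a run made little difference, with medians of 45.2%, 46.4% and 46.2% on OGD/R and 45.7%, 46.0% and 45.5% on control by place from first to last. Some blocks kept a pattern by place all the same. In the block TRF100006386 to TRF100006396 the middle members TRF100006387, TRF100006391 and TRF100006395 had shares of 73.2%, 72.6% and 68.4% on OGD/R against 69.2%, 71.5% and 68.1% on control. The other 6 members lay between 38.6% and 43.9% on OGD/R and between 36.3% and 61.1% on control.

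The comparison of OGD/R with control asked first which TRF probes had a higher or lower total signal. That signal sums dye-normalized channels, so the weight of IP against Sup in it rests on the dye normalization. The differences were small for most probes: their median was 0.08 on the log2 scale, with a 25th percentile of -0.15 and a 75th of 0.34. Above 0 were 59.3% of the 2234 measured TRF probes, against 46.8% of the 5195 other small-RNA probes, whose median was -0.03. At least 2-fold higher in OGD/R were 49 TRF probes (2.19%), against a background of 1.24% of all RNAs measured in the same way, and 4 (0.179%) were at least 2-fold lower, against 0.843%. Restricted to probes measured in both channels, the counts were 21 of 1441 higher (background 0.733%) and 1 lower (background 0.774%). The upward shift of the median held at every brightness, with medians between 0.07 and 0.10 in 4 groups of TRF probes by total level, whereas other small-RNA probes in the same groups went from 0.05 in the dimmest to -0.07 in the brightest. With no scaling between the arrays the TRF median was -0.01 and that of the other probes -0.12, so the sign of the shift rests on the scaling. With the normexp background correction no probe of the 2234 reached 2-fold either way (0 higher, 0 lower), and the TRF median was 0.04. Of the 5195 other small-RNA probes, 7 were higher and 12 lower with normexp, and their median was 0.02. The larger share of higher TRF probes was therefore not seen with normexp, and the medians lay closer together.

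Some of the higher probes were neighbours in a run or block. The 49 fell into 36 runs, of which 27 held 1 such probe, and into 26 blocks, of which 15 held 1. Of the 49, 22 lay in runs with at least 2 such probes, and 16 came from the 3 blocks that held most. Of the 36 measured neighbours in the same runs that did not reach 2-fold, 33 differed in the same direction, with a median of 0.69. Likeness within runs was general and not particular to these probes. The correlation of total differences between run neighbours was 0.64 over 1299 TRF pairs and 0.69 over 913 TRFSS pairs. Whether the 49 probes report separate RNAs was not tested. In Sup 39 of the 49 were at least 2-fold higher. In IP 14 were, out of 21 measured there on both arrays.

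The block with the highest median was TRF100004702 to TRF100004720, with a median total difference of 1.22 over 13 measured members, all above 0. It split by run. TRF100004702, TRF100004703 and TRF100004704 had total levels of 9.94, 10.11 and 10.36 on the OGD/R array against 8.56, 8.45 and 8.99 on the control array. The differences of that run were 1.38, 1.67 and 1.38, with scanner errors of 0.26, 0.27 and 0.23, and those of the next run, TRF100004706 to TRF100004708, were 1.22, 1.33 and 1.31. These errors are the scanner's own and cover the spot only. The last 2 runs of the block, TRF100004714 to TRF100004720, differed by 0.13 to 0.59 only. The runs also differed in how they were measured: the 7 measured members up to TRF100004712 were above background in Sup on both arrays but in IP on neither, while those from TRF100004714 onward were measured in both, with IP shares of 47.7% to 86.5% on OGD/R and 56.2% to 81.9% on control. With normexp the median of the block was 0.27, with all 13 members still above 0.

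The block TRF100004946 to TRF100004956 held the largest total differences among probes measured in both channels. TRF100004955 had a total level of 11.92 on OGD/R and 10.52 on control, which is 2.63-fold higher (log2 difference 1.39, scanner error 0.18). TRF100004954 had 11.99 on OGD/R and 10.62 on control, a difference of 1.37, and TRF100004950 had 11.72 on OGD/R and 10.43 on control, a difference of 1.29. All 9 members were higher on OGD/R, by 0.59 to 1.39, and 6 of them by at least 2-fold. Both channels took part, with a median difference of 1.21 in Sup over 9 members and 0.97 in IP over 7. The IP share of those 7 was low and even, between 18.4% and 20.8% on OGD/R and between 18.4% and 26.9% on control. With normexp the block median was 0.58.

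In the block TRF100006562 to TRF100006572 all 9 members were measured in both channels. Their total levels ran from 10.71 to 12.19 on OGD/R and from 9.71 to 11.18 on control, and each member was higher on OGD/R by between 0.77 and 1.22. The median was 1.00, and 3 members passed 2-fold. IP shares ran from 40.0% to 45.7% on OGD/R and from 33.8% to 45.6% on control. Both channels were higher on OGD/R, with median differences of 0.87 in Sup and 1.15 in IP. The ratio differences of the members ran from -0.11 to 0.67. Under normexp the median of this block was 0.43, with all 9 members above 0.

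Other single probes with large differences had neighbours of the same sign. TRF100004908 had a total level of 13.24 on OGD/R and 11.89 on control, a difference of 1.34, and the 10 members measured in both channels from TRF100004898 to TRF100004910 differed by 0.52 to 1.34. TRF100002670 had 11.06 on OGD/R and 9.76 on control, a difference of 1.30. It also had the highest IP difference of all TRF probes measured in both channels, 1.73, with IP levels of 9.94 on OGD/R and 8.21 on control. Its block mates TRF100002666 and TRF100002672 were detected in IP or Sup on the OGD/R array alone: TRF100002666 was at least 2.99-fold higher in IP and TRF100002672 at least 2.40-fold higher in Sup.

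Lower probes were fewer and their blocks less marked. TRF100006879 was the only one of the 1441 probes measured in both channels that was at least 2-fold lower, with a total level of 10.68 on OGD/R and 11.94 on control, a difference of -1.27 with a scanner error of 0.15. Its run neighbours TRF100006878 and TRF100006880 differed by -0.85 and -0.67. In this run the differences were -1.67 to -0.84 in Sup and -0.73 to -0.40 in IP, so IP shares were 44.3% to 51.7% on OGD/R against 37.1% to 40.5% on control. The other runs of the block held no probe measured in both channels. TRF100000543 and TRF100000544 each differed by -0.81, and TRF100003798 by -0.77. The lowest block median, -0.54, belonged to TRF100005866 to TRF100005876, where the 9 members had differences of -0.77 to -0.02. With spike-in scaling 8 of them were below 0. Its bright member TRF100005876 had a total level of 15.11 on OGD/R and 15.69 on control. The block of TRF100000300, TRF100000293 to TRF100000302, was lower throughout as well, with differences of -0.51 to -0.35 in its 9 members. Of the 224 blocks with at least 5 measured members, 42 had every measured member above 0 and 11 had every one below 0. With no scaling these counts were 33 and 25, and with spike-in scaling 61 and 2. No share from the other tokens stands beside them. The block median was at least 2-fold higher in 2 and at least 2-fold lower in 0. Normexp kept the sign of the block median in all 22 blocks with a median of at least 0.5 and in all 3 with a median of at most -0.5. With normexp, however, 170 of the 224 blocks had a median above 0, and 14 of those 22 stayed among the 22 highest.

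Agreement between neighbours was described by the correlation of total differences across pairs of probes, which share 2 arrays, the dye normalization and the scaling. Among probes measured in both channels it was 0.80 for consecutive numbers in a run (796 pairs). It was 0.61 across the step of 2 between runs of a block (250 pairs) and 0.23 between blocks (394 pairs). Pairs that were nearest on the array surface but belonged to different blocks had a correlation of 0.07 (1441 pairs). In 458 runs with at least 2 probes measured in both channels (1278 probes), differences between runs accounted for 80.0% of the variance of the total difference. The SD within a run was 0.16. In these probes the total level on the control array was shared to a similar degree, with 81.7% of its variance between runs. With dim probes included (735 runs, 2070 probes), the share between runs was 64.3% for the total difference and 82.7% for the control level. The SD of the total difference within a run was then 0.23. Differences in level within a block lay mostly between its runs: in the 90 blocks of 9 with all members measured, 66.5% of the spread of the control level within blocks was between runs and 17.6% between places in the run. In 22 of those 90 blocks all 9 members were above 0 in total difference, and in 4 all were below, with signs that rest on the scaling. With all 2234 measured probes, dim ones included, the correlation within runs was 0.64 (1299 pairs). TRFSS probes, whose identifiers carry the longer token, had a like value of 0.69 over 913 pairs. A TRF probe and a TRFSS probe with the same number had a correlation of 0.02 over 473 pairs.

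By channel, 57 of 2163 TRF probes were at least 2-fold higher in Sup (2.64%, background 1.55%) and 11 were lower (0.509%, background 1.7%). In IP, 37 of 1506 were at least 2-fold higher (2.46%, background 1.32%) and 2 were lower (0.133%, background 0.596%). Among probes measured in both channels, 27 of 1441 were higher in Sup (background 1.02%) and 5 lower (background 2.06%), while 35 were higher in IP (background 1.08%) and 2 lower (background 0.53%). The medians were 0.07 in Sup and 0.12 in IP, against -0.05 and 0.01 for the other small-RNA probes. With no scaling between the arrays the TRF medians were 0.0024 in Sup and -0.02 in IP, and with spike-in scaling the Sup median was 0.38, so size and, in IP, sign rest on the scaling. Of the probes measured in both channels, TRF100001060 had the highest Sup difference, 1.40, with Sup levels of 13.22 on OGD/R and 11.82 on control. Its IP level was 13.68 on OGD/R and 13.14 on control, so its IP share was 56.6% on OGD/R against 71.4% on control. The lowest IP difference was that of TRF100001295, -1.25, with IP levels of 7.73 on OGD/R and 8.98 on control. Across the 1441 probes the Sup and IP differences had a Pearson correlation of 0.56, with the arrays and the scaling shared.

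Some probes were well above background on 1 array only. In Sup these were 155 on OGD/R alone and 113 on control alone, and in IP 124 on OGD/R alone and 114 on control alone. Bounds of at least 2-fold were reached by 7 of the OGD/R ones and 0 of the control ones in Sup, and by 9 and 1 in IP. No share over other small-RNA probes stands beside these counts, so they do not set the TRF probes apart. The largest bound in Sup was that of TRF100003150, at least 3.56-fold higher in OGD/R, with levels of 8.65 on OGD/R and 6.54 on control. On the control side the largest was that of TRF100004554, at least 2.18-fold lower in OGD/R in IP. Each bound sets the brighter signal against the lowest signal well above background on the other array or the probe's own signal there, whichever was higher.

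The second comparison asked whether the balance of IP to Sup differed, read as the log2 IP/Sup centred on the median of each array. The counts of TRF probes lay near the background. Their median difference was 0.01, and 85 of 2234 were at least 2-fold higher (3.80%, background 4.27%) and 136 at least 2-fold lower (6.09%, background 5.97%). Most of these were not measured in both channels. Of the 1441 that were, 12 were higher (0.833%, background 1.34%) and 12 lower (0.833%, background 0.917%).

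The 12 higher and the 12 lower probes lay in 12 different runs each, so no run held 2 of them in 1 direction. TRF100007007 had the highest ratio difference, 2.83-fold with a scanner error of 0.41 on the log2 scale, from IP shares of 77.7% on OGD/R and 55.5% on control. Its run neighbours TRF100007006 and TRF100007008 differed by 0.82 and 0.16. TRF100007590 followed with 1.34, from shares of 67.3% on OGD/R and 45.2% on control. TRF100006388 had the lowest, -1.30 with a scanner error of 0.36, from shares of 38.6% on OGD/R and 61.1% on control, while its neighbours TRF100006386 and TRF100006387 differed by 0.48 and 0.30. TRF100008928 followed with -1.29, from shares of 64.7% on OGD/R and 82.0% on control. The Sup signal of TRF100007007 was dim, at 7.22 on OGD/R and 8.40 on control, where the lowest signal well above background was 6.80 on OGD/R and 6.82 on control.

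Smaller ratio differences did run through some blocks. In TRF100000535 to TRF100000545 all 9 members had a lower IP/Sup on OGD/R, with log2 differences of -1.04 to -0.34 and a median of -0.62. The median IP share of the block was 36.5% on OGD/R and 49.8% on control, and the median difference was -0.71 in IP and 0.02 in Sup. The 6 members of TRF100006018 to TRF100006024 were also lower, with differences of -0.72 to -0.41. Their shares were 64.1% to 69.8% on OGD/R and 72.5% to 78.5% on control. In the other direction, the median ratio difference was 0.54 in the block TRF100003330 to TRF100003352, over the 9 of its 18 members measured in both channels. Those differences ran from -0.17 to 0.69, with 1 below 0, and the median share was 56.4% on OGD/R and 44.9% on control. Centring on the spike-in probes lowered all ratio differences, to a TRF median of -0.44, so the size of this block median rests on the centring. In the brightest block, TRF100000273 to TRF100000283, the ratio differences of those 8 members were 0.26 to 0.54. Centred on the spike-in probes they were -0.19 to 0.09, with 7 of the 8 below 0, and with normexp and loess 7 were below 0 as well. Over probes measured in both channels the correlation of ratio differences was 0.39 within runs (796 pairs), 0.28 between runs of a block (250 pairs) and 0.07 between blocks (394 pairs), and 37.8% of their variance lay between runs, against 84.0% for the ratio itself on the control array.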

How the data were processed

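The deposited scanner output holds 1 fluorescence intensity for each spot and dye, background-subtracted and dye-normalized by Agilent Feature Extraction 11.0.1.1, per the file headers, with a log10 ratio of Cy5 to Cy3 that the authors deposited beside it and its error. A second deposited table, the authors' log2 values of 5702 probes (1605 of them TRF), served as an alternative. A column of it is the processed signal on the log2 scale less a constant of unstated origin.

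Outlier-marked spots and control spots were left out. OGD/R signals were shifted to the 75th percentile of the control array (Sup over all RNAs, IP over RNAs detected in IP on both arrays, total over RNAs that passed the filter). Total and ratio were read for probes that both arrays showed well above background in 1 channel or more, Sup and IP for probes detected in that channel. The ratio was centred on the array median. Negative control spots had median processed intensities of 27.5 in Sup and 31.0 in IP on OGD/R, and of 28.8 and 31.7 on control. The number of arrays, 1 per group, limits the precision, and no p-value was computed.

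Named probes are the 10 brightest, the 5 highest and lowest of each measure among probes measured in both channels, and the largest bounds. The rule asked for runs with at least 5 measured members, of which there were 2, so blocks with at least 5 were used instead, a choice made after the layout was seen. Neighbouring members of these probes and blocks are named with them, and the blocks TRF100006386 to TRF100006396 and TRF100008126 to TRF100008136 were described after their values were seen. Values of single blocks under other scalings, centrings and background corrections were added after seeing the data. The probes and the measures were chosen with earlier results of these data known. The scripts used Python 3.11.15, pandas 2.3.3, R 4.3.3 and limma 3.58.1 (normexp with offset 50) and were tested on simulated data. Alternatives covered the background correction, loess, filters, scaling, centring, thresholds and the authors' table.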

Additional observations from a re-analysis of the deposited data

How the results depend on the processing

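No paired analysis was possible because each group has 1 array and the labels carry no replicate numbers, and no replicate could be left out. Normexp on the median signals, with or without loess, left 0 TRF probes at least 2-fold higher and 0 lower in total, ratio and IP. In Sup 2 TRF probes were higher without loess and 3 with it, and 0 were lower. Of 5195 other small-RNA probes, normexp without loess gave 7 higher and 12 lower in total, and 8 and 5 in ratio. It gave 0 and 5 of 3823 in IP, and 9 and 23 of 4789 in Sup. For these other probes, adding loess gave 7 and 12 in total and 7 and 11 in ratio. In IP it gave 0 and 6, and in Sup 11 and 15. Normexp adds an offset of 50 intensity units and leaves out the scanner's dye normalization, and the median TRF spot lay fewer than 20 units over background. The ratio difference of TRF100001295 was 0.0055 with normexp, against -1.11. For the 5 highest and 5 lowest probes of each measure, each taken for its own measure, 389 of 390 values under alternatives kept their sign. These probes were picked for large differences, and other filters, scalings and centrings leave their values unchanged or shift all probes alike. Outside the normexp settings the count could hardly have come out otherwise, so it is no check of single probes. Within runs the correlation of total differences was 0.82 with either normexp setting, 0.77 in the authors' table and 0.36 with no filter.

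With no filter, 112 of 3630 TRF probes were higher and 46 lower in total, 263 and 344 in ratio, 196 and 113 in Sup, and 255 and 181 in IP. Of 10751 other small-RNA probes, 273 were higher and 230 lower in total. They had 843 and 906 in ratio, 445 and 463 in Sup, and 656 and 566 in IP. With both channels required, 21 were higher and 1 lower in total, 12 and 12 in ratio, and 27 and 5 in Sup. In the authors' table, 27 of 1583 were higher and 2 lower in total, 23 and 23 of 1583 in ratio, and 25 and 7 of 1517 in Sup. The other small-RNA probes there had 27 and 44 of 3984 in total, 104 and 104 of 3984 in ratio, and 23 and 92 of 3588 in Sup. A threshold of 1.5-fold gave 256 higher and 66 lower in total, 245 and 316 in ratio, 262 and 94 in Sup, and 200 and 42 in IP. A threshold of 3-fold gave 1 and 0 in total, 17 and 40 in ratio, 1 and 1 in Sup, and 2 and 0 in IP. Counts at these 2 thresholds have no share of other probes beside them. Scaling on the spike-in probes gave 192 of 2163 higher and 4 lower in Sup, against 243 and 32 of 4789 other small-RNA probes. It shifted the median of all small-RNA probes there to 0.31. In total it gave 72 of 2234 higher and 3 lower, against 65 and 32 of 5195, with a TRF median of 0.17. Centring on the spike-in probes gave 33 of 2234 higher and 338 lower ratios and a TRF median of -0.44. The other small-RNA probes moved alike, with 78 higher and 767 lower of 5195 and a median of -0.42. With no scaling, 22 of 1506 were higher and 6 lower in IP, and 38 and 6 of 2234 in total. The other small-RNA probes had 18 and 59 of 3823 in IP, and 29 and 82 of 5195 in total. Blocks with every measured member above 0 numbered 33 and below 0 numbered 25 with no scaling, 61 and 2 with spike-in scaling, and 58 and 6 with normexp.

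The median IP share was 31.6% on OGD/R and 30.4% on control before dye normalization, and 40.2% on OGD/R and 41.2% on control over probes measured in at least 1 channel. A detection limit at the 99th percentile of the negative controls passed 89.4% of TRF probes in Sup and 71.8% in IP on OGD/R, and 90.4% in Sup and 74.4% in IP on control. There were 595 runs with at least 3 measured members, 275 when numbers may step by 2, and 2 with at least 5. The cause of these changes was not tested.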

Other observations

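The total level of a TRF probe on the OGD/R array followed that on the control array across 2234 probes, with a Pearson correlation of 0.98. Among probes measured in both channels the mean total level and the mean ratio had a correlation of -0.20 over 1441 probes. The largest block, TRF100000974 to TRF100001064, held both directions: TRF100001040 had a total level of 15.78 on OGD/R and 16.50 on control, while TRF100001060 had 14.45 on OGD/R and 13.63 on control. The run TRF100001038 to TRF100001040 was lower on OGD/R, with differences of -0.72 to -0.21, and the run TRF100001058 to TRF100001060 higher by 0.19 to 0.82, with IP shares above 50% on both arrays in each of these 6 probes.

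In 592 runs of 3 with all members measured, 221 had every total difference above 0 and 131 every one below 0. These signs rest on the scaling between the arrays, and no share from the other tokens stands beside them. The range of the total difference within such a run had a median of 0.28, and that of the total level a median of 0.70 on OGD/R and 0.63 on control. Of the differences near the threshold, 28 probes had a total difference between 0.9 and 1 and 16 between 1 and 1.1.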
